A study of Homo sapiens with 2 samples.

Results

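The DEAD-box and DEAH-box helicase genes are the 54 protein-coding genes of GENCODE 44 whose symbol starts with DDX or DHX followed by a digit, out of 20046 protein-coding genes. They comprise 38 DDX and 16 DHX genes, and the symbol rule uses no measured value. Their transcripts were examined in an IGF2BP3 LACE-seq experiment in the human tumour line OE-19, which derives from adenocarcinoma at the junction of esophagus and stomach and was grown in RPMI1640 medium with serum and given no other treatment that the labels name. In LACE-seq, RNA bound by a protein is crosslinked with UV, immunoprecipitated and fragmented, and cDNA ends are amplified linearly and sequenced. The data are 2 peak lists, of 21142 and 20799 peaks, 1 for each of 2 replicates that form a single group. No input, IgG or expression library was analysed here, so a peak and the abundance of its RNA cannot be told apart, and where no peak was called IGF2BP3 may still have bound.

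DDX and DHX proteins use ATP to unwind RNA or to remodel complexes of RNA and protein. Members act at most steps in the life of an RNA, among them splicing, ribosome assembly, nuclear export, translation and decay. IGF2BP3 is a cytoplasmic RNA-binding protein with KH domains that is known to bind and stabilise mRNAs, and the study treats it as a reader of N6-methyladenosine (m6A).

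Exons of the helicase genes carried 54 peaks in replicate 1 and 60 in replicate 2, of 18681 and 19014 exonic peaks of protein-coding genes. A peak on exons of more than 1 protein-coding gene was counted once for each of them, here and in the shares over all genes. In both lists together, 39 of the 54 genes had an exonic peak in at least 1 replicate and 15 had none. Fold enrichment is the ratio of signal at the summit to the local background. Overlapping pairs of peaks were ranked by the smaller of their fold-enrichment percentiles in the lists, and the first 3, on DDX23, DHX15 and DDX21, each lay across the boundary between an intron and an exon. Such boundaries are shown as genomic windows of 30 nt on the gene strand, with the last 15 intron bases in lower case and the first exon bases in capitals. Introns and exons are here those of the MANE Select transcript of each gene, and other transcripts can differ. Overlapping peaks of both replicates covered each boundary, and at the first 4 sites both summits were within 35 nt of the first exon base. Helicase peaks had a median width of 322 bp in replicate 1 and 311.5 bp in replicate 2, and the narrowest had 293 and 294 bp. A peak can thus reach from an exon into an intron, and whether IGF2BP3 bound intron sequence was not tested.
DDX23 exon 2, chr12:48845768-48845797, minus strand: tcctactcattacagATGGCAGGAGAGCTG
DHX15 exon 2, chr4:24576664-24576693, minus strand: aatttttgtttttagGAAGGATCGAGATCG
DDX21 exon 15, chr10:68982528-68982557, plus strand: acattctctcaacagGAGAAATGGCATGAT
DDX56 exon 14, chr7:44566065-44566094, minus strand: actttgcctccttagAGAGCAAAGTCCCAG
DHX15 exon 6, chr4:24549008-24549037, minus strand: acttttattttgtagGAAATTGATGAAGCC
DHX33 exon 4, chr17:5461095-5461124, minus strand: cgttctcttatgcagGTGATTGTGATGTCA
In DDX23 the capitals open with the start codon ATG, so the first coding base of this mRNA is also the first base of exon 2. In 9 overlapping pairs both summits lay up to 150 nt before such a boundary, in an intron of the MANE Select transcript. All 9 introns ended in ag, the usual last bases of an intron. At DHX33 exon 4 and DHX15 exon 11, all bases of both peaks (100%) lay in exons of some GENCODE transcript. The same count of pairs was not made over all protein-coding genes.

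GGAC, the core of the sequence in which m6A is usually found, is shown for some of the pairs whose peaks held it near a summit. The windows shown lay in exons. Among those not shown, the windows of DHX33 and of DHX36 near exon 2 lay in an intron of the MANE Select transcript. The letters are read on the gene strand, with GGAC in capitals.
DHX36 exon 1, 5′ UTR, chr3:154324405-154324434: ttgtagtctgccaGGACaatgagttatgac
DDX17 exon 13, CDS, chr22:38486406-38486435: cgttctcgttaccGGACcacttcttcagcc
DDX23 exon 2, CDS, chr12:48845740-48845769: tggctgacaaaaaGGACcgtgatgcatcac
DDX54 exon 20, 3′ UTR, chr12:113158860-113158889: gaagaggatgtgaGGACcaggacccagccc
In DHX36 this GGAC was 20 nt from the summit of replicate 1 and 1 nt from that of replicate 2. In DDX17 the distances were 13 and 8 nt. These were the only 2 of 28 overlapping pairs with GGAC within 50 nt of the summit in both lists, and 6 more had it in 1 list. None of the 8 windows extracted in this way had T before GGAC, so none held the longer UGGAC. These counts were not made over the 11250 overlapping pairs of all protein-coding genes. They also depend on the window, since whole peaks held GGAC in 71.1% for the helicases and 73.8% over all protein-coding genes (means of the replicates).

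An exonic peak was present on 28 of the 54 genes in replicate 1 (51.9%, against 37.3% of all protein-coding genes) and on 29 in replicate 2 (53.7%, against 39.0%). In both replicates a peak was present on 18 genes, or 33.3% (Wilson 95% interval 22.2 to 46.6), close to the 31.6% of all protein-coding genes. At least 1 replicate had a peak on 39 genes, or 72.2% (59.1 to 82.4), above the 44.7% of all protein-coding genes. Of these 39, the share with a peak in both was 46.2% (31.6 to 61.4), whereas it was 70.7% over all protein-coding genes. Overlapping peaks, which share at least 1 bp between the lists, were found on 15 genes (27.8%, 17.6 to 40.9), against 28.0% of all protein-coding genes. Of the helicase genes, 10 had peaks in replicate 1 only and 11 in replicate 2 only, and 3 (DDX5, DDX52 and DHX9) had peaks in both lists that did not overlap. These shares were compared without a test. Intervals here cover counting error only, and reads amplified by PCR are not independent molecules.

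The helicase mRNAs are long, with a median of 3718.5 nt and 17 exons in the MANE Select transcript, against 2885 nt and 8 exons over all protein-coding genes. Per 10 kb of mRNA they carried 2.58 peaks in replicate 1 and 2.86 in replicate 2, against 2.56 and 2.61 over all protein-coding genes. Per length of mRNA the helicases were thus near all genes in replicate 1 and slightly above them in replicate 2. Among genes with a peak, the density was 3.62 and 4.02 for the helicases and 5.05 and 5.14 for all protein-coding genes.

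Peaks were unevenly spread over the 39 genes. DDX17, DHX15, DDX23 and DDX6 held 20 of the 54 peaks of replicate 1 and 15 of the 60 of replicate 2. The most on 1 gene in 1 list was 6, on DDX17 in replicate 1. At the other end, 17 genes had a single peak in both lists together. Of the helicase peaks, 10 and 11 also lay on an exon of another annotated gene.

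**Figure D1:**
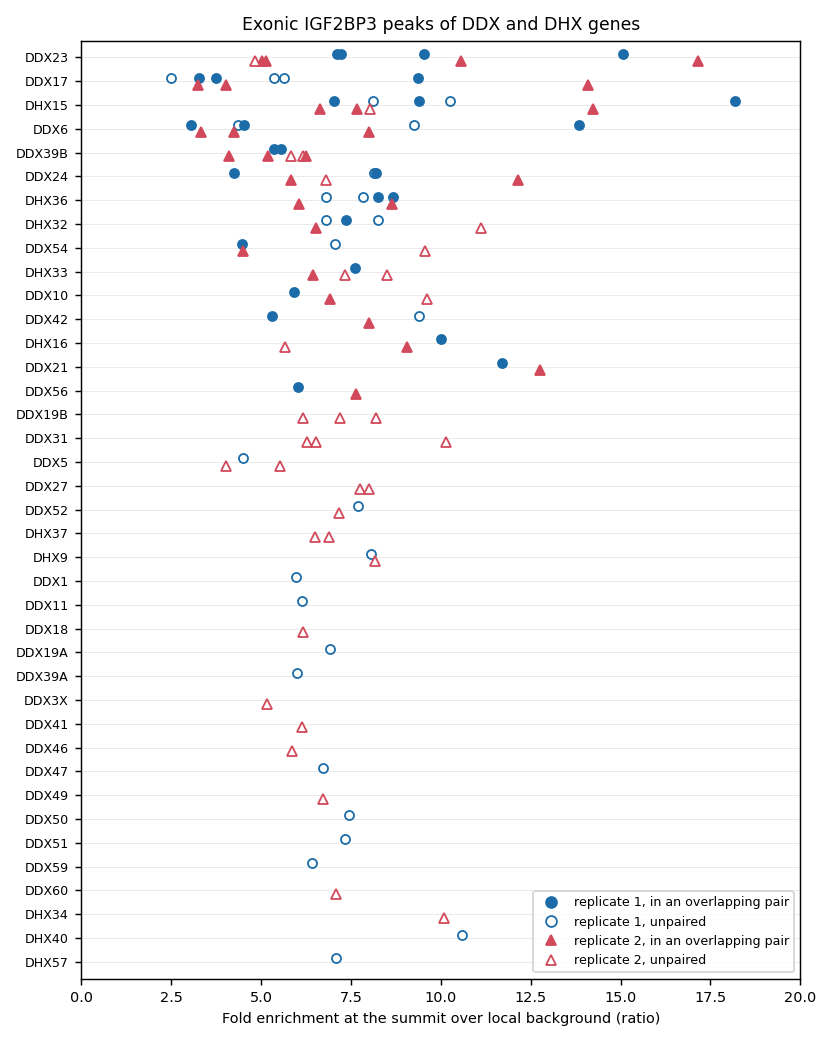
Fold enrichment (x axis, ratio over local background) of each exonic peak of the 39 helicase genes with a peak (y axis), with circles for replicate 1 and triangles for replicate 2. Filled symbols are peaks in an overlapping pair on the same gene, which fill the upper 15 rows only, and the values from 14.1 to 18.2 at the right belong to DDX23, DHX15 and DDX17.

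The splicing helicases were the role list with the largest share of overlapping peaks in each replicate. Of the 11 genes, 6 had a peak in replicate 1, 7 in replicate 2, 5 in both and 5 an overlapping pair, where the shares over all protein-coding genes were 37.3%, 39.0%, 31.6% and 28.0%. Of their 15 and 19 peaks, 11 and 12 overlapped a peak of the other list (73.3% and 63.2%), against 62.3% and 61.4% of exonic peaks of all protein-coding genes. The value in replicate 2 was thus near that of all genes. Both values over all genes lay inside the Wilson intervals of the splicing helicases (48.0 to 89.1 and 41.0 to 80.9). Most of their peaks lay on DDX23, DHX15 and DDX39B, so the ranking rests mainly on these genes. DDX23, a helicase of the spliceosome's tri-snRNP, had 4 peaks in replicate 1 and 5 in replicate 2, and 4 overlapping pairs, the most of any member.

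At DDX23 exon 2 (chr12:48845583-48846009 in replicate 1) the fold enrichment was 15.1 in replicate 1 and 17.2 in replicate 2, with 60 and 56 reads at the summit. The summits lay 9 and 35 nt upstream of the exon, 26 bp apart. A second pair on the 5′ UTR in exon 1 had 9.54 and 10.6, with 27 and 22 reads. Weaker pairs covered exon 7 (7.10 and 5.12) and the stop codon in exon 17 (7.22 and 5.02). In each list the fold enrichment was higher at exons 1 and 2 than at both sites further downstream, whereas the exon 17 pair had more reads, 35 and 25, than the exon 1 pair. The 31 bases at the summit of the exon 17 peak of replicate 1 occur in 2 places in the genome.

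DHX15, which takes spent spliceosomes apart, had 5 and 4 peaks, with overlapping pairs on 3 exons. On exon 2 (chr4:24576372-24576948 in replicate 1) the fold enrichment was 18.2 and 14.2, with 79 and 40 reads, and the summits were 3 and 10 nt upstream of the exon. The value in replicate 1 was the highest of all helicase peaks in either list. The pairs on exon 6 (9.38 and 6.65) and exon 11 (7.04 and 7.66) rested on 18 and 8 and on 25 and 15 reads. A broad peak over the stop codon and 3′ UTR in exon 14 had 10.3 and 39 reads in replicate 1 and no counterpart in replicate 2.

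DHX16, which activates the spliceosome before its first catalytic step, had 1 overlapping pair on exons 2 and 3, with a fold enrichment of 9.99 and 9.07. The pair of DDX42, a helicase linked to the particle that binds the branch site, covered exon 18, with 5.30 and 8.0. DDX39B, an RNA export and splicing factor, had 3 pairs between 4.11 and 6.25. The pair with 5.36 and 6.25 lay on exons outside the MANE Select transcript that also hold the snoRNA SNORD84, and the other pairs share 1 peak of replicate 1, which also touches an exon of the read-through gene ATP6V1G2-DDX39B. Peaks carry no strand in these lists, and reads of such overlapping genes cannot be told apart. Of the remaining splicing helicases, DDX39A had 1 peak in replicate 1, DDX41 and DDX46 had 1 each in replicate 2, and DHX8, DHX35 and DHX38 had none.

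The ribosome biogenesis helicases were the longest role list. Of 16 genes, 10 had a peak in replicate 1 and 12 in replicate 2, with 15 in either, 7 in both and 6 with an overlapping pair. The shares over all protein-coding genes, in the same order, were 37.3%, 39.0%, 44.7%, 31.6% and 28.0%. Of their 13 and 22 peaks, 8 and 7 overlapped a peak of the other list (61.5% and 31.8%), against 62.3% and 61.4% over all protein-coding genes. The value over all genes lay inside their Wilson interval in replicate 1 (35.5 to 82.3) and above it in replicate 2 (16.4 to 52.7). This difference between the replicates was not tested. DDX21, a nucleolar helicase of rRNA transcription and processing, had a single peak in each list, on its last exon (chr10:68982368-68982755 in replicate 1). The fold enrichment there was 11.7 and 12.8, with 47 and 29 reads, and the summits were 2 bp apart in the intron just before the exon.

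DDX24 had overlapping pairs on exon 2 (8.2 and 12.1) and on exon 9 (4.24 and 5.82). On exon 2 the summits were 213 bp apart, and only the peak of replicate 1 reached the start codon. DHX33, which binds rDNA promoters, had a pair on exon 4 with 7.62 and 6.43. DDX56, a nucleolar helicase, had a pair over its stop codon with 6.03 and 7.64 and summits 1 bp apart. DDX10 had a pair on its last exon with 5.92 and 6.92, on 7 and 8 reads. Only 13.9% and 15.1% of the bases of these peaks were exonic, and the summits lay 101 and 93 nt upstream of the exon. A summit of 7 reads has an exact Poisson 95% interval of 2.81 to 14.4 reads, so this site is the least well measured of the 15 genes. The pair of DDX54 covered the stop codon with 4.46 and 4.50 and shares its bases with an exon of CFAP73.

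The other ribosome biogenesis helicases had peaks without an overlapping partner. DDX52 had 1 peak in each list at different exons. DDX47, DDX50 and DDX51 had 1 peak each in replicate 1 only. In replicate 2 only, DDX31 had 3 peaks, DDX27 and DHX37 had 2 each, and DDX18 and DDX49 had 1 each. DDX55 had none.

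Among the 9 helicases of translation, export and mRNA turnover, 3 had a peak in replicate 1 and 5 in replicate 2 (37.3% and 39.0% over all protein-coding genes), 6 in either list (44.7%) and 2 in both (31.6%). The 2 in both, DDX6 and DHX36, had overlapping pairs (28.0% over all protein-coding genes). DDX6 represses translation and promotes decapping in P-bodies. At its exon 2, across the start codon (chr11:118786100-118786678 in replicate 1), the fold enrichment was 13.8 in replicate 1 and 8.0 in replicate 2, with 38 and 15 reads and both summits on the same base. This ratio of 1.73 between the replicates was the largest of the 28 pairs. Its 3′ UTR, of 4342 nt, held broad pairs with 4.53 and 4.25 (73 and 45 reads) and with 3.05 and 3.33 (49 and 34 reads). In both lists the start codon site had fewer reads than the 3′ UTR sites and a higher fold enrichment. The summit of the second 3′ UTR peak in replicate 1 lies in a sequence with 2 copies in the genome.

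DHX36, which unwinds G-quadruplexes, had a pair over the start codon in exon 1 with 8.68 and 6.05, on 12 and 7 reads. Its pair at exon 2 had 8.26 and 8.66, and only 13.5% and 15.6% of the bases of these peaks were exonic. DDX19B had 3 peaks in replicate 2, DDX3X and DHX34 had 1 each in replicate 2, and DDX19A had 1 in replicate 1. DDX25 and DHX29 had none.

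DDX17 and DDX5 are close paralogs that act as cofactors in transcription, splicing and microRNA processing. DDX17 had 6 peaks in replicate 1 and 3 in replicate 2, with 3 overlapping pairs. The pair over the start codon in exon 1 (chr22:38505961-38506440 in replicate 1) had a fold enrichment of 9.38 and 14.1 and 32 and 55 reads. The pair in the coding part of exon 13 had 3.27 and 3.24 on 79 and 55 reads, and that in the 3′ UTR had 3.74 and 4.02 on 82 and 59 reads. Both pairs on exon 13 had a lower fold enrichment than the pair at the start codon, with more reads in replicate 1 and as many or more in replicate 2. DDX5 had 1 peak in replicate 1, at exon 12 with 4.51, and 2 in replicate 2, at exon 1 with 5.54 and exons 3 to 4 with 4.04, and none of these overlapped. DHX9 had 1 peak in each list, on exon 28 (8.07) and exon 1 (8.16). DDX1 had 1 peak in replicate 1 and DDX20 had none.

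The remaining lists were small. Over all protein-coding genes 44.7% had a peak in either replicate, so the absence of peaks on so few genes says little about their role. DDX60 was the only 1 of 3 innate immune helicases with a peak, 1 in replicate 2, while DDX60L and DHX58 had none. No peak was found on the mitochondrial helicases DDX28 and DHX30 or on the germline helicases DDX4, DDX43 and DDX53, and DDX3Y also had none. DDX11, a DNA helicase, had 1 peak in replicate 1, in a part it shares with DDX11-AS1. DHX32, whose function is less defined, had a pair over the start codon with 7.37 and 6.52. DDX59, DHX40 and DHX57 had 1 peak each in replicate 1 only.

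**Figure D2:**
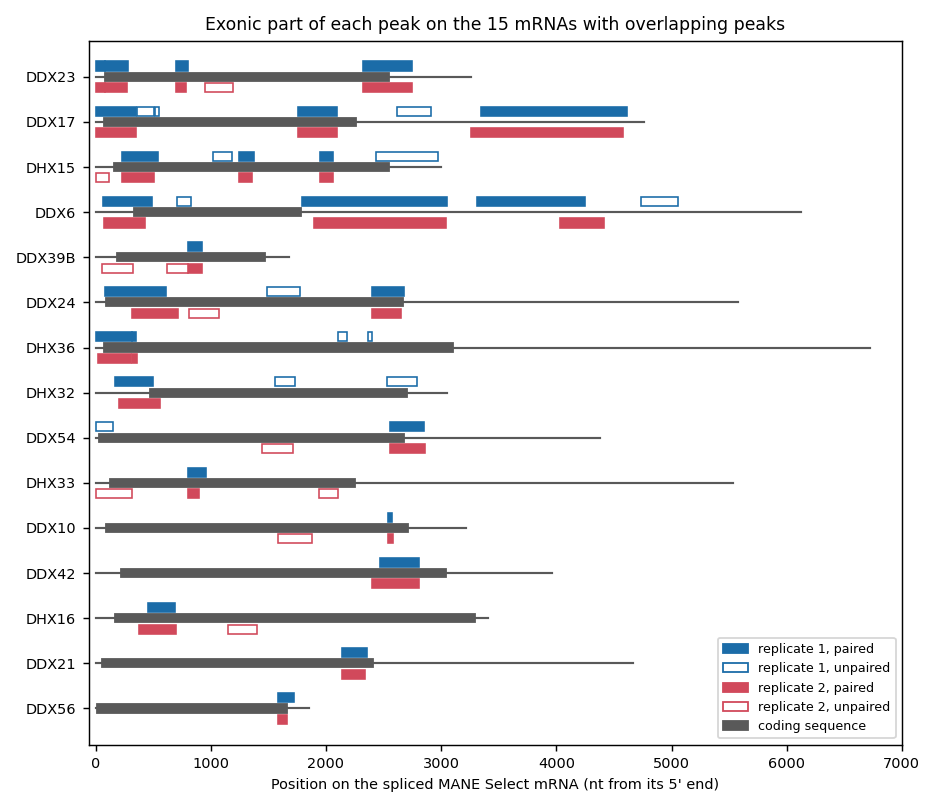
Part of each peak that lies in MANE Select exons, on the spliced mRNA of the 15 genes with overlapping peaks (x axis, nt from the 5′ end). Replicate 1 is above and replicate 2 below each mRNA, with the coding sequence as a thick bar. Peaks without a base in such exons are not drawn, among them paired peaks of DDX39B and unpaired peaks of DDX42 and DHX32. Filled boxes are paired peaks, which lie over the start codon in both lists on DDX23, DDX17, DDX6, DHX36 and DHX32 and over the stop codon in both on DDX23, DDX54 and DDX56.

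Across the 28 overlapping pairs, the fold enrichment of the replicates went together. Spearman's rho was 0.808 over 28 pairs, against 0.664 over 11250 pairs of all protein-coding genes, as a description, since pairs on 1 gene share their RNA. The median ratio of the larger to the smaller value was 1.17. Fold enrichment was higher in replicate 1 for 13 pairs and in replicate 2 for 15, so neither list was higher throughout. The number of reads at the summit was higher in replicate 1 for 19 pairs. With −log10 q in place of fold enrichment rho was 0.478, against 0.469 over all protein-coding genes, so by this measure the helicases were near all genes. Summits lay within 50 bp of each other in 16 pairs, with a median distance of 32.5 bp and a largest of 732 bp in the DDX6 3′ UTR.

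**Figure D3:**
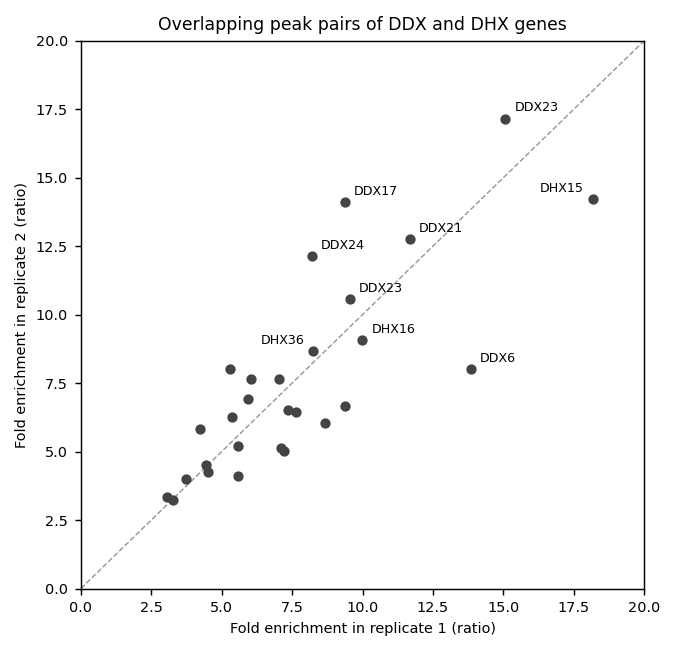
Fold enrichment of the 28 overlapping pairs in replicate 1 (x axis) and replicate 2 (y axis), both as ratios on linear axes, with a dashed line of equality. The 9 pairs with the highest lower percentile are named; the points lie on both sides of the line, 13 below it and 15 above, and DDX6 is farthest from it in proportion.

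Of the helicase peaks, 28 of 54 (51.9%, Wilson 95% interval 38.9 to 64.6) overlapped a peak of the other list in replicate 1 and 28 of 60 (46.7%, 34.6 to 59.1) in replicate 2. The mean was 49.3% ± 3.67 (SD, n = 2), against 61.8% ± 0.596 over exonic peaks of all protein-coding genes. The value over all genes lay inside the interval of the helicases in replicate 1 (62.3%) and above it in replicate 2 (61.4%). These intervals take peaks as independent, which peaks on 1 gene are not, so they may be too narrow and are no test. Whether the replicates came from separate cultures is not given in the labels, so this SD may hold technical spread only. The overlap was larger at more reads. In replicate 1, 4 of 14 peaks with up to 14 reads overlapped, 15 of 27 with 15 to 36 reads, and 9 of 13 with 37 or more. In replicate 2 the numbers were 6 of 21, 14 of 27 and 8 of 12.

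Over all protein-coding genes the overlap in these 3 ranges was 41.6%, 60.2% and 83.0% in replicate 1 and 39.4%, 60.3% and 83.2% in replicate 2. The helicase peaks were below these values in each range, and each of these values lay inside the Wilson interval of the helicase peaks. Low read numbers were also more frequent among them, with 25.9% and 35% of peaks at up to 14 reads, against 22.9% and 24.7%. The part of read number in the lower overlap was not tested.

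In strength the helicase peaks were close to those of all protein-coding genes. Their median fold enrichment was 7.10 and 6.76 (6.84 and 7.13 over all), and their median number of reads at the summit was 21.5 and 18 (24 and 23 over all). Single peaks had from 7 to 82 reads in replicate 1 and from 7 to 59 in replicate 2, and from 2.51 to 18.2 and from 3.24 to 17.2 in fold enrichment. The DHX peaks had a higher median fold enrichment than the DDX peaks in both lists, 8.11 and 7.66 against 6.13 and 6.27. They had fewer reads, with medians of 17 and 13 against 25 and 22. These differences between the subfamilies were not tested, since peaks of 1 gene are not replicates.

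The region of an mRNA was taken from the MANE Select transcript, as the class with most exonic bases under the peak. Coding sequence was the main class of 68.5% and 66.7% of helicase peaks, against 58.1% and 56.6% over all protein-coding genes. The 3′ UTR was the main class of 18.5% and 11.7%, against 29.2% and 23.3%. In both lists the coding share was higher and the 3′ UTR share lower for the helicases, but the values over all genes lay inside their Wilson intervals, except for the 3′ UTR in replicate 2 (5.77 to 22.2). Coding sequence also makes up more of the helicase mRNAs, 63.1% against 47.2%, and 3′ UTR less, 34.0% against 47.4%. When the class was read at the summit base alone, the coding share was 30.6% for the helicases and 33.0% over all, so the order turned. Of the summits, 25 in replicate 1 (46.3%) and 22 in replicate 2 (36.7%) lay outside MANE Select exons, against 35.9% and 36.9% over all protein-coding genes, so in replicate 2 the helicases were at the value over all genes. Of these summits, 19 and 17 were within 150 nt upstream of an exon, as on DDX23, DHX15 and DDX21. Not all of them lay in an intron, since the count includes summits before exon 1. Such summits were on DDX54 in replicate 1 and on DDX27, DDX5 and DHX15 in replicate 2. This count was not made over all protein-coding genes, so it is not shown to be particular to the helicases. The middle of the exonic part fell in the first 25% of the mRNA for 40.4% and 47.3% of helicase peaks, against 37.5% and 43.8%, and in the last 25% for 23.1% and 12.7%, against 14% and 11.6%. Introns of these genes held 1 and 5 further peaks that touched no exon.

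Start codons were covered by 9 helicase peaks in replicate 1 (16.7%, 9.02 to 28.7) and by 11 in replicate 2 (18.3%, 10.6 to 29.9), against 9.61% and 14.5% over all protein-coding genes. Stop codons were covered by 6 (11.1%, 5.19 to 22.2) and 4 (6.67%, 2.62 to 15.9), against 14.9% and 13.3%. Each value over all genes lay inside the interval of the helicases. With only the 10000 peaks of each list with the largest −log10 q, the mean start codon share was 12.5% for the helicases and 13.4% over all, in place of 17.5% and 12.1%. Of the 28 pairs, 5 covered the start codon in both lists and 3 the stop codon in both.

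**Figure D4:**
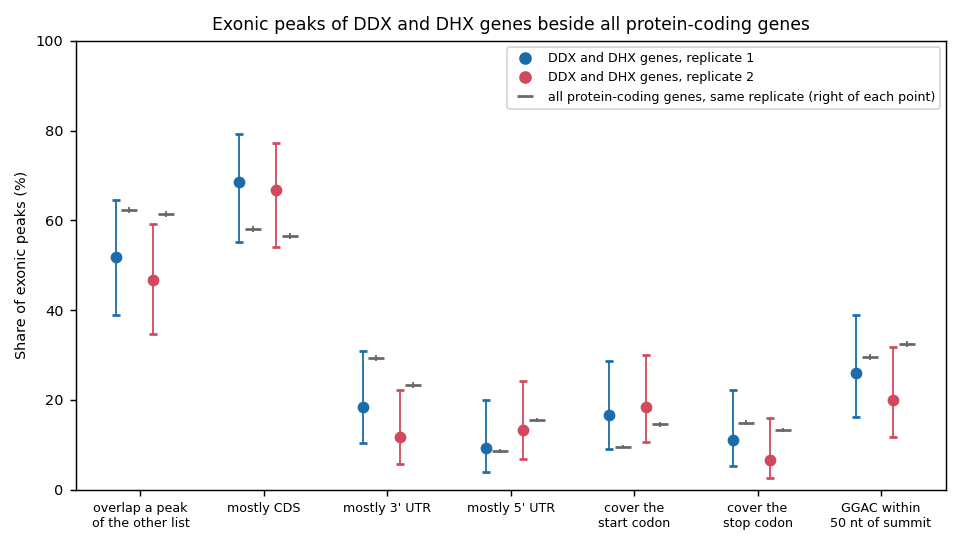
Share of exonic peaks (y axis, percent) with each of 7 features (x axis), as points with Wilson 95% intervals for the helicase genes in replicate 1 (blue) and replicate 2 (red), and as grey marks with their intervals for all protein-coding genes in the same list. The coding share was higher and the 3′ UTR and overlap shares lower than the grey marks in both replicates, and most intervals of the helicases reach the grey marks.

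GGAC occurred within 50 nt of the summit in 14 helicase peaks (25.9%) in replicate 1 and in 12 (20%) in replicate 2, against 29.5% and 32.5% over all protein-coding genes, read on the gene strand. The value over all genes was inside the Wilson interval of the helicases in replicate 1 (16.1 to 38.9) and above it in replicate 2 (11.8 to 31.8). When the window was centred on the middle of the peak, the mean share was 30.8%, against 30.4%, so the helicases were not lower there. UGGAC, which contains GGAC, occurred in 3 and 4 peaks (5.56% and 6.67%), against 10.1% and 10.0%. CACA, a motif of the CA-rich kind that IGF2BP proteins are known to bind, occurred in 31.5% and 31.7%, against 36.2% and 33.3%. The median GC content around the summits was 44.6% and 54.0%, against 50.5% and 57.4%, so it was lower in replicate 1 than in replicate 2 both for the helicases and for all genes.

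Helicases with other symbols were also examined. Of 14 such genes, 6 had a peak in replicate 1, 7 in replicate 2 and 5 in both, near the 37.3%, 39.0% and 31.6% of all protein-coding genes. EIF4A3, the DEAD-box protein of the exon junction complex, reached a fold enrichment of 19.9 and 17.5, above the highest DDX or DHX value in both lists. The translation factor EIF4A2 reached 8.65 and 11.0, whereas EIF4A1 had peaks in replicate 2 only. ASCC3 reached 13.5 and 15.7, and SNRNP200, the spliceosome's unwinding helicase, had 5 and 4 peaks. No peak was found on RIGI, YTHDC2, DQX1, TDRD9, MTREX or HFM1. Of 47 genes with a DDX or DHX symbol that are not protein-coding, such as pseudogenes and antisense transcripts, 4 had an exonic peak in replicate 1 and 3 in replicate 2. Among them, DDX11-AS1 in replicate 1 and DHX9-AS1 in replicate 2 share a peak already counted for DDX11 and DHX9. The same count was not made over all genes that are not protein-coding.

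The cell line was checked on its marker genes. All 6 epithelial genes (KRT8, KRT18, KRT19, EPCAM, CDH1 and ERBB2) had overlapping peaks in both lists. Of PTPRC, CD3E, COL1A1, PECAM1 and HBB, which mark other cell types, only COL1A1 had a peak, 1 in replicate 2 with 10 reads.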

How the data were processed

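IGF2BP3 LACE-seq peaks of 2 replicates of OE-19 cells were used, each list called by the authors on 1 replicate and not on pooled reads. Per the study's methods, reads left after removal of pre-rRNA were aligned to hg38 with Bowtie and peaks were called with Piranha. The submitters' processing notes name fastp, HISAT2 and MACS2 for these samples, with versions not given in the sources used here, and the deposited files have the narrowPeak layout of MACS. Which of these made the lists is not settled, and an aligner that cannot cross splice junctions would lose reads there. For every peak the authors deposited its limits and summit in bp. They also deposited its fold enrichment, a ratio to local background, and its p-value and q-value, both as −log10. A deposited score, equal to the q-value column, was left unused.

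The total read number of each library is unknown. The reads at each summit were recovered as the whole number whose Poisson p-value and fold match those of the peak (tolerance 0.001). This succeeded for all 21142 and 20799 peaks. The lowest was 4 and the median 22 in both lists. The recovery was tested on simulated data.

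A peak was given to a gene when it overlapped an exon of any GENCODE 44 transcript of a protein-coding gene by at least 1 bp, and 46 and 36 peaks on unannotated scaffolds were dropped. Overlap between lists was counted from 1 bp, regions and codons came from the MANE Select transcript, and motifs were searched on the gene strand within 50 nt of the summit. Copies of the 31 bases at each summit were counted on both strands of the primary assembly. Coordinates are 1-based. With 1 group and no control, no test between conditions was possible. Shares have Wilson 95% intervals and are set beside the same share over all protein-coding genes, without a test. Intervals over peaks leave out that several peaks can lie on 1 gene, so they may be too narrow.

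Genes with overlapping peaks in both lists were named with their values, in the order of the smaller fold-enrichment percentile that their best pair reached in either list. Other members were named once with their number of peaks. The members and the role lists were chosen with earlier results of these data known. Alternative settings concerned how overlap was counted, which peaks, exons and replicates entered, where a peak was placed, the motif window and the measure of strength. Python 3.11.15, numpy 2.4.6, pandas 2.3.3, scipy 1.17.1 and matplotlib 3.10.9 were used.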

Additional observations from a re-analysis of the deposited data

How the results depend on the processing

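Of 78 alternatives for 11 results, apart from those with 1 replicate alone, 53 moved the value by less than the spread between the replicates, or by less than 1.5 times for a count, and 25 moved it by more (rho has no spread between replicates, so any change in it was counted). With only the 10000 peaks of each list with the largest −log10 q, 11 helicase genes had a peak in both lists, 7 had overlapping peaks, the mean overlap was 37.6%, the median fold enrichment 8.13, the coding share 69.0%, the 5′ UTR share 8.35%, the start codon share 12.5% and rho 0.867, on 25 and 23 helicase peaks. With MANE Select exons only, the coding share was 71.9% and rho 0.811. With the summit inside an exon, the coding share was 58.6%, the 3′ UTR share 21.7%, the 5′ UTR share 14.7% and rho 0.790. Without peaks shared with another gene, the coding share was 74.2%, the start codon share 16.1% and rho 0.758. With summits within 50 bp, the overlap was 28.1% and rho 0.844, and with single-copy summits rho was 0.802. With the class at the summit base, the coding share was 30.6% and the 5′ UTR share 14.7%. GGAC was found in 71.1% of whole peaks and in 30.8% of windows around the middle of the peak. With −log10 q, rho was 0.478. The cause of these changes was not tested. With 1 replicate alone, which with 2 replicates always lies within the SD of their mean, the overlap was 46.7 to 51.9%, the median fold enrichment 6.76 to 7.10, the coding share 66.7 to 68.5%, the 3′ UTR share 11.7 to 18.5%, the 5′ UTR share 9.26 to 13.3%, the start codon share 16.7 to 18.3%, the stop codon share 6.67 to 11.1% and the GGAC share 20 to 25.9%. No paired analysis was possible because both samples belong to 1 group. Depth limits the weakest sites, which rest on 7 reads in each list.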
